A study of Mus musculus with 5 samples.

Results

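Fbxo15, Fbxo43, Fbxo24, Fbxl13 and Fbxw10 are F-box genes that are known mainly from testis, meiosis or embryonic stem cells, and their signal was followed here in heart and fibroblast samples, outside those sites. They were taken as the rows of the F-box sheet whose first gene symbol is one of these names, with earlier results of these data known. All 5 were found, each with 1 probe set, among the 63 genes of the F-box sheet and the 71 genes, cullins included, of both sheets. Expression was measured on Affymetrix arrays in 5 samples of male mice aged 6 months, with 1 sample per group and 5 mice pooled in each. Left ventricle tissue, isolated cardiomyocytes (CM), non-failing cardiac fibroblasts (non-failing CFb) and lung fibroblasts (lung Fb) came from healthy C57Bl/6N mice. Failing cardiac fibroblasts (failing CFb) came from beta1-adrenergic transgenic mice with heart failure, so that transgene and disease cannot be told apart in that sample. Neither the promoter of the transgene nor the isolation of the mouse cells is stated in the labels or the methods. As each group is a single pooled array, the number of arrays limits the precision. Values carry no replicate error and differences were not tested.

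F-box proteins are the exchangeable receptors of the SCF ubiquitin ligases. The F-box binds Skp1 on the Cul1 scaffold, and the rest of the protein, often a run of WD40 or leucine-rich repeats, holds the substrate. Most tissues use a shared set of such receptors. A smaller number is made chiefly in germ cells or early embryonic cells, where it serves meiosis, the building of sperm or the pluripotent state. Of the 63 genes of the F-box sheet, 2 carried a meiosis term in the deposited Gene Ontology annotation. They were Fbxo43 and its relative Fbxo5.

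Most of the 5 genes were low in CM and lung Fb and reached higher levels in the cardiac fibroblasts. Levels are log2 values as deposited, and the study's methods take 6.0 from the manufacturer as the level from which protein synthesis is relevant, with 6.5 for strong expression. In CM, 0 of the 5 genes reached 6.0, whereas 53.5% of all 71 genes did, and in lung Fb 0 of 5 did, against 49.3% of all genes. In non-failing CFb 3 of 5 reached 6.0, with 74.6% over all genes, and in failing CFb 4 of 5, with 73.2% over all genes. Left ventricle had 1 of 5, with 33.8% over all genes. After a shift of each sample to equal medians, and likewise after quantile normalization, it had 3 of 5, with 47.9% over all genes under either. The median level of the 5 genes was 1.03 in CM, 2.97 in lung Fb, 4.93 in left ventricle, 6.58 in non-failing CFb and 6.98 in failing CFb. The corresponding medians of all 71 genes were 6.10, 5.90, 4.44, 6.79 and 6.58.

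**Figure D1:**
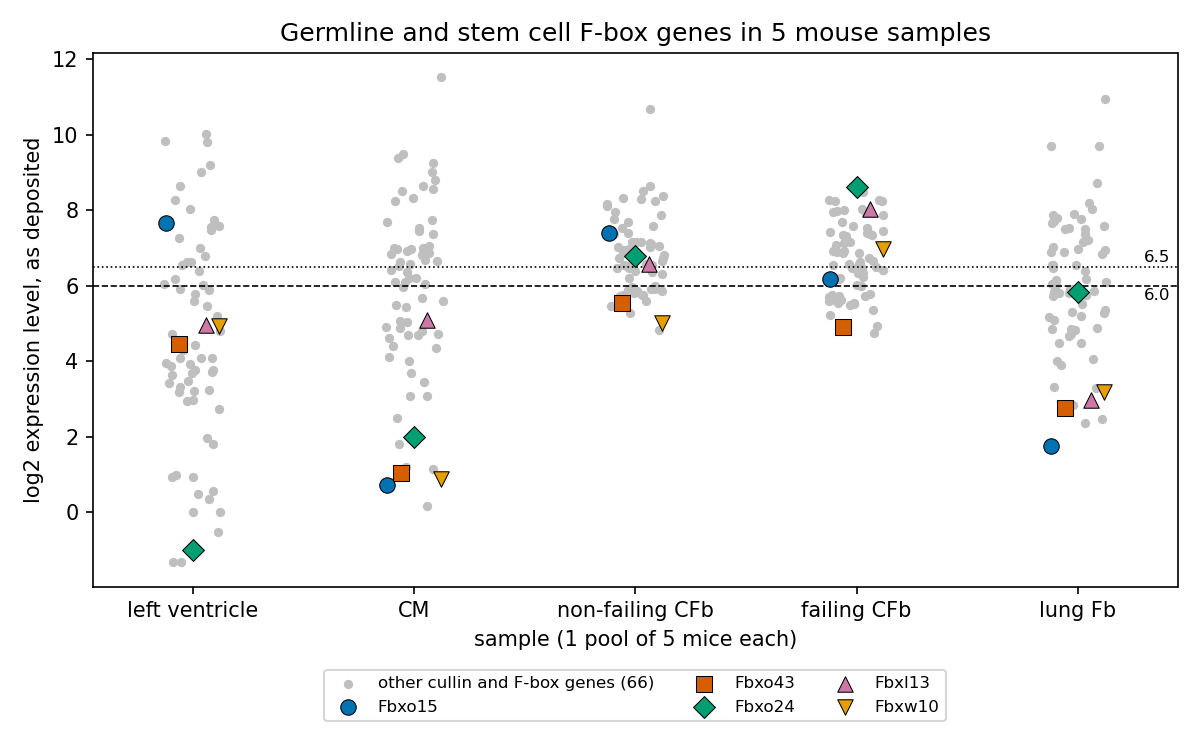
Log2 expression level as deposited (y axis) in the 5 samples (x axis), with 1 coloured symbol for each of the 5 genes, grey points for the other cullin and F-box genes (mean of their probe sets) and horizontal lines at 6.0 and 6.5. In CM all 5 genes lie at or below 5.08, and in non-failing CFb no gene of either kind lies below 4.82.

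The samples did not share a lower end. The lowest of the 71 genes stood at -1.32 in left ventricle, 0.18 in CM and 1.76 in lung Fb, but at 4.82 in non-failing CFb and 4.76 in failing CFb. A level near 5 was therefore the bottom of the range in the cardiac fibroblasts and a middle value in left ventricle. For this reason each level is also given as a percentile, the share of the 71 genes of the same sample with a level at or below it. Probe sets differ in response, so a percentile serves here to follow 1 gene over the samples and not to rank genes. By percentile, 3 of the 5 genes stood in the lowest 10% in CM and 4 of 5 in lung Fb, with 9.86% of all genes there by construction. Non-failing CFb had 2 of 5 in the lowest 10%, and left ventricle and failing CFb had 1 of 5 each. The median percentile of the 5 genes was 5.63 in CM and 8.45 in lung Fb, against 42.3 in non-failing CFb, 56.3 in left ventricle and 63.4 in failing CFb.

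**Figure D2:**
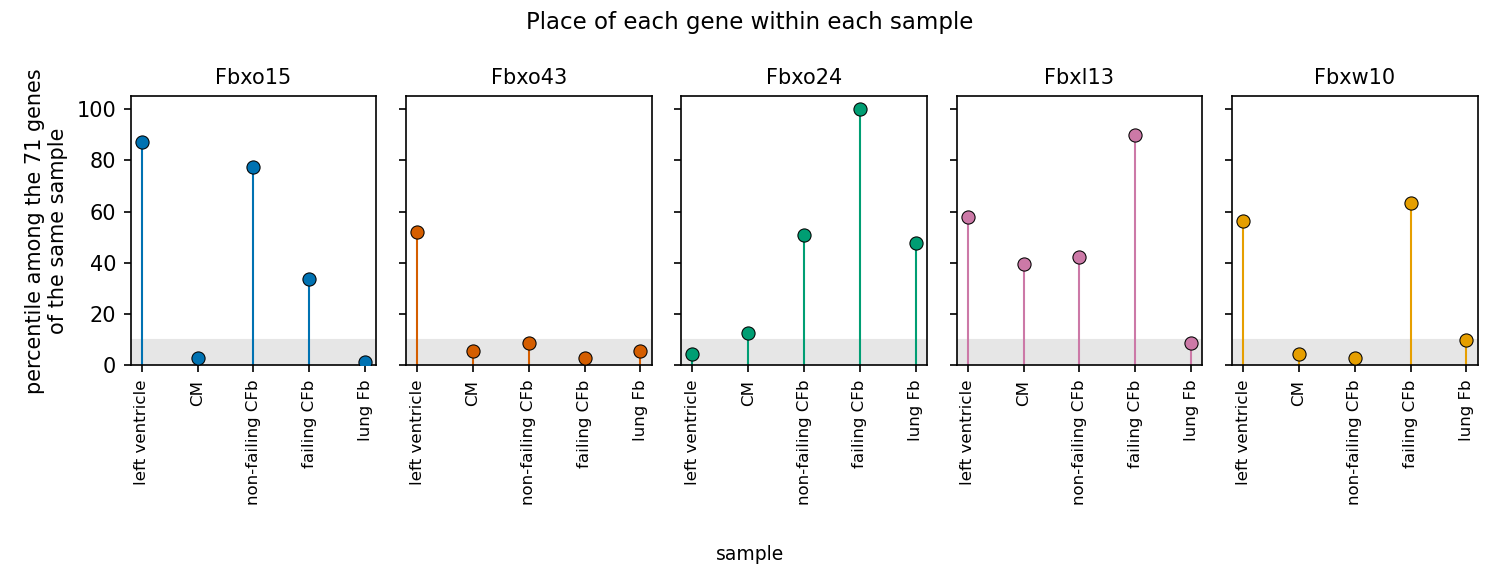
Percentile of each gene among the 71 genes of the same sample (y axis) in the 5 samples (x axis), 1 panel per gene, with the lowest 10% shaded. Fbxo15 falls from 87.3 in left ventricle to 2.82 in CM, Fbxo43 lies in the shaded band in 4 samples, and Fbxo24 reaches 100 in failing CFb.

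Fbxo15, also named Ecat3, is transcribed in mouse embryonic stem cells under Oct4 and Sox2 and has served as a reporter of reprogramming to the pluripotent state. Its level was 7.67 in left ventricle, 7.39 in non-failing CFb and 6.19 in failing CFb, but 0.72 in CM and 1.76 in lung Fb. On the linear scale of the whole-array table these were intensities of 203.5, 168.25, 72.95, 1.65 and 3.39. Left ventricle and non-failing CFb were high, at percentiles 87.3 and 77.5, failing CFb lay below the middle of its range at 33.8, and CM and lung Fb were at the bottom of theirs at 2.82 and 1.41. Left ventricle exceeded CM by 6.95 on the log2 scale. CM are the contractile cells of that tissue. In a tissue sample, fewer cells of a type and less RNA per cell cannot be told apart. The probe set behind these values cannot be checked against another of the same gene.

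Fbxo43, also named Emi2, inhibits the anaphase-promoting complex and holds the egg in metaphase of the second meiotic division until fertilisation. It was the gene of the 5 that reached 6.0 in no sample. Its level was 5.53 in non-failing CFb, 4.90 in failing CFb, 4.46 in left ventricle, 2.76 in lung Fb and 1.03 in CM. These levels span 4.50 on the log2 scale, yet in 4 of the 5 samples they lay at the low end, with percentiles of 8.45, 2.82, 5.63 and 5.63 in non-failing CFb, failing CFb, lung Fb and CM. Left ventricle was the exception at percentile 52.1, with an intensity of 22.0. Fbxo5, also named Emi1, is the relative that restrains the same complex in dividing somatic cells, and it read 5.97 in non-failing CFb, 7.96 in failing CFb, 7.55 in left ventricle, 6.89 in lung Fb and 4.41 in CM.

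Fbxo24 is expressed in testis and is needed in the mouse for the formation of normal sperm. Its level was 8.60 in failing CFb, 6.79 in non-failing CFb, 5.84 in lung Fb, 2.01 in CM and -1 in left ventricle. The last of these is an intensity of 0.5, against 388.41 in failing CFb, so that the gene spanned 9.60 on the log2 scale. Of the 39 genes with 1 probe set, 2, Fbxo24 itself included, had a range as wide. All 3 fibroblast samples stood above both CM and left ventricle, the samples that were lowest for 19.7% and 54.9% of all genes. Percentiles rose in the same order, from 4.23 in left ventricle and 12.7 in CM to 47.9 in lung Fb, 50.7 in non-failing CFb and 100 in failing CFb.

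Fbxl13 encodes a leucine-rich repeat F-box protein that is also a subunit of the nexin-dynein regulatory complex of cilia and sperm tails. Its probe set is annotated with a further locus, LOC100046716, described as similar to Fbxl13, so that its signal may come from either. Its level was 8.03 in failing CFb, 6.58 in non-failing CFb, 5.08 in CM, 4.96 in left ventricle and 2.97 in lung Fb. In contrast to the other 4 genes, it was in the middle of the range in CM, at percentile 39.4. Its lowest percentile, 8.45, was in lung Fb, as was that of Fbxo15. Failing CFb stood highest, at percentile 90.1.

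Fbxw10 encodes an F-box protein with WD40 repeats. Its level was 6.98 in failing CFb, 5.01 in non-failing CFb, 4.93 in left ventricle, 3.19 in lung Fb and 0.89 in CM. Non-failing CFb and left ventricle differed by 0.09 on the log2 scale. That level was the 2nd lowest of 71 genes in non-failing CFb, at percentile 2.82, whereas in left ventricle it lay at percentile 56.3. Failing CFb alone reached 6.0, at percentile 63.4, and CM and lung Fb lay in the lowest 10% with percentiles of 4.23 and 9.86.

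Promoter sequences from RefSeq were matched by symbol for 2 of the 5 genes, Fbxl13 and Fbxw10, which both had their highest level in failing CFb. No promoter sequence was used for the other genes, of which Fbxo24 was also highest in failing CFb. The 2 sequences differ widely in base composition. Each is the 250 bases before an annotated start in GRCm38.p6, at chr5:21645606-21645855 on the minus strand for Fbxl13 and chr11:62846873-62847122 on the plus strand for Fbxw10, with an X-box in capitals where there is one.
Fbxl13: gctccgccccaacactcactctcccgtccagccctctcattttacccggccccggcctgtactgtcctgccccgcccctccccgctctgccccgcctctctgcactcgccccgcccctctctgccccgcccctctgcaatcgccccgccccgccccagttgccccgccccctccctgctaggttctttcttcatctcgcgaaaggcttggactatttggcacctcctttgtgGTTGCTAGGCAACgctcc
Fbxw10: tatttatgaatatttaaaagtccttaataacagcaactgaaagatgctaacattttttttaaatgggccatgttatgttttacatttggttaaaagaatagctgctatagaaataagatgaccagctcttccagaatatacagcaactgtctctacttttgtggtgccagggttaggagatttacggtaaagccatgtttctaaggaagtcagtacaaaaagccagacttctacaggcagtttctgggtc
The window of Fbxl13 was 67.6% G and C with 17 CpG sites, and that of Fbxw10 35.6% with 1 CpG site, where the medians over 32851 such windows were 52.4% and 6 sites. The X-box is the element bound by the RFX factors of ciliary genes, and it was searched on both strands as GTTGCNNNGCAAC after the sequence had been seen. It was found in 0.207% of all windows, and in the Fbxl13 window at positions -18 to -6, counted from -1 at the base before the start. The GC box GGGCGG, on either strand and with overlapping matches counted, was found 7 times in the Fbxl13 window, with 0 of them over the X-box, and 0 times in that of Fbxw10. At least 1 GC box was present in 32.7% of all windows. The octamer ATTTGCAT, the cyclic AMP element TGACGTCA and the TATA box TATAAA, present in 1.60%, 1.55% and 12.4% of all windows on either strand, were found in neither. A match of letters does not show that a site is used.

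Between samples, the differences of the 5 genes were set against those of all 71 genes in 4 pairs. A gene was counted when it differed at least 2-fold, which is 1 on the log2 scale, and reached 6.0 in 1 of the 2 samples. The first 3 pairs share the non-failing CFb sample, and the last shares CM with the first. As each of the 5 genes has 1 probe set, the spread was taken from the 32 genes with several, as the standard deviation (SD) over the probe sets of a gene of the difference between the 2 samples. This is a spread within arrays and not a replicate error.

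All 5 genes were lower in CM than in non-failing CFb, by between 1.498 and 6.67 on the log2 scale, whereas 59.2% of all genes were lower. The median difference was -4.50 for the 5 genes and -0.51 for all genes, and the median SD was 1.74. Fbxo15 differed by -6.67, Fbxo24 by -4.79 and Fbxl13 by -1.498, and these 3 of 5 met the rule, against 36.6% of all genes. In the higher direction 0 of 5 met it, against 21.1% of all genes. The first 2 of these differences exceeded the SD of each of the 32 genes, and that of Fbxl13 was below the median SD. Fbxo43 at -4.50 and Fbxw10 at -4.13 were not counted, since neither sample reached 6.0. Both were in the lowest 10% in both samples, and with quantile normalization, which gives the samples a common lower end, their differences became -0.55 and 0.17. Those of Fbxo15 and Fbxo24 were then -5.08 and -3.20. Under equal medians and under quantile normalization, 2 of 5 genes met the rule, where 26.8% and 28.2% of all genes then did. Fbxl13 no longer reached 6.0 in either sample, and under quantile normalization its difference was also less than 2-fold, at -0.91.

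Failing CFb exceeded non-failing CFb by at least 2-fold for 3 of the 5 genes, against 19.7% of all genes. Fbxw10 was higher by 1.96, Fbxo24 by 1.81 and Fbxl13 by 1.45. Fbxo15 was 2-fold lower, with a difference of -1.21, as were 22.5% of all genes, and Fbxo43 differed by -0.64. The median SD was 1.12, and 84.4%, 78.1%, 62.5% and 53.1% of the 32 genes had an SD smaller than the differences of Fbxw10, Fbxo24, Fbxl13 and Fbxo15. The 4 calls stayed under equal medians and under quantile normalization, where 21.1% and 28.2% of all genes were then higher and 19.7% and 22.5% lower. The sizes depended on the scaling. Quantile normalization took Fbxw10 to 4.75, as its level in non-failing CFb became 2.07, and Fbxo24 to 2.88 and Fbxl13 to 2.19.

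**Figure D3:**
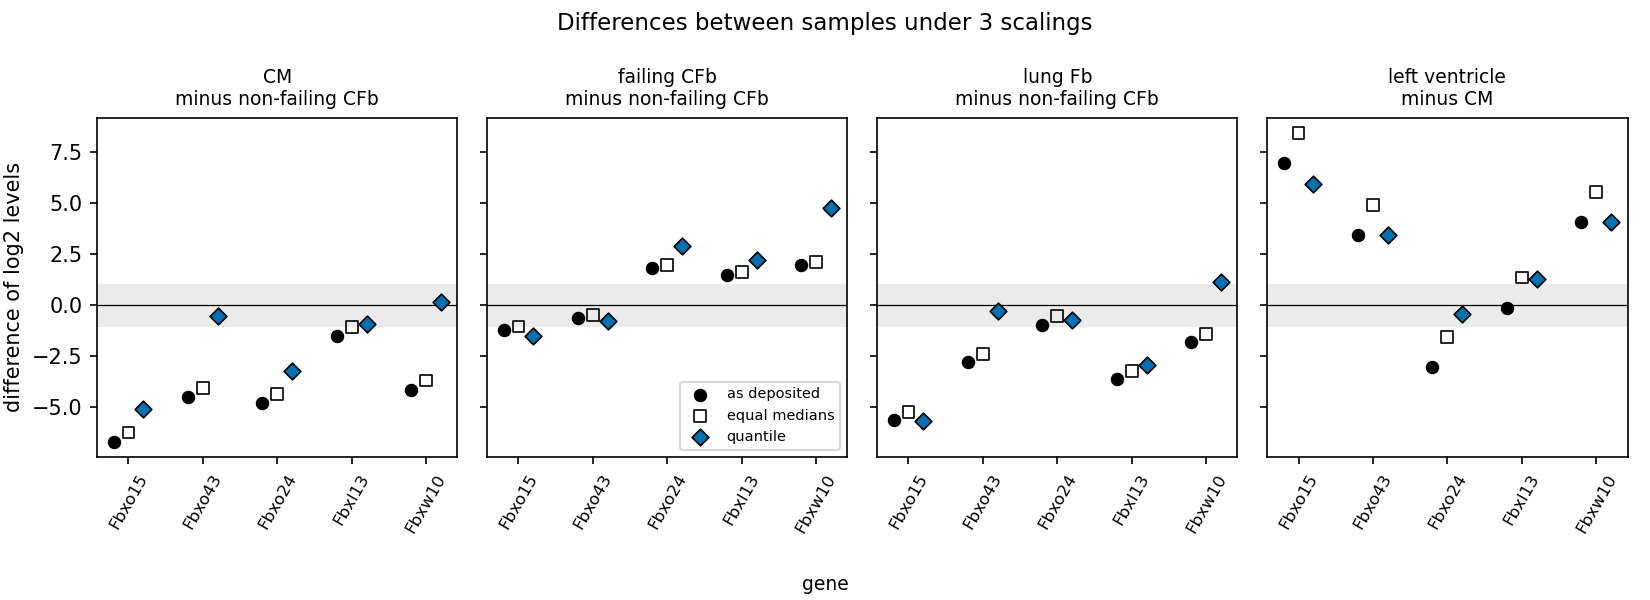
Difference of log2 levels (y axis) for each gene (x axis) in the 4 pairs of samples, shown as deposited (black circles), after setting equal medians (open squares) and after quantile normalization (blue diamonds). The band under 2-fold is shaded. Fbxw10 changes side in both CM and lung Fb against non-failing CFb with quantile normalization. Fbxl13 changes side in left ventricle against CM under both scalings. Fbxo15, Fbxo43 and Fbxo24 keep their sides in all 4 pairs.

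Lung Fb were lower than non-failing CFb for all 5 genes, as they were for 60.6% of all genes. Fbxo15 differed by -5.63 and Fbxl13 by -3.61, and these 2 of 5 met the rule, against 42.3% of all genes, while 0 of 5 met it as higher, against 14.1%. Fbxo43 at -2.77, Fbxw10 at -1.82 and Fbxo24 at -0.95 did not. The median SD was 1.89, so that the difference of Fbxo24 lay well within it and that of Fbxw10 just within it. With quantile normalization the difference of Fbxo43 shrank to -0.28 and that of Fbxw10 turned to 1.14. That of Fbxl13 became -2.94 but was no longer counted, since its level in non-failing CFb fell to 5.97.

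Left ventricle was set against CM to see what the tissue holds beyond its isolated muscle cells. Fbxo15, with 6.95, was the 1 gene of 5 that met the rule as higher, against 14.1% of all genes, and 0 of 5 met it as lower, against 31% of all genes. Fbxw10 at 4.04 and Fbxo43 at 3.43 were higher in left ventricle without reaching 6.0, and Fbxo24 at -3.01 was lower, again under 6.0 in both samples. The difference of Fbxo24 was -1.54 with equal medians and -0.41 with quantile normalization. Fbxl13 differed by -0.12. The SD between probe sets was wide in this pair, with a median of 3.34, and 90.6% of the 32 genes had an SD smaller than the difference of Fbxo15. Fbxl13 turned to 1.35 higher in left ventricle with equal medians and to 1.29 with quantile normalization. Under either scaling 3 of 5 genes met the rule as higher, where 38.0% and 29.6% of all genes then did.

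Ordered by level, neighbouring samples often differed by less than the median SD of their pair. For Fbxo43 this held for every step above lung Fb. For Fbxl13 it held from lung Fb through left ventricle and CM to non-failing CFb, and the step of 1.45 up to failing CFb exceeded it. Fbxo24 had a step of 3.84 from CM to lung Fb and of 1.81 from non-failing to failing CFb above it, while the steps from left ventricle to CM and from lung Fb to non-failing CFb were under it. For Fbxo15 the step of 4.43 from lung Fb to failing CFb divided the samples, the steps of 1.04 from CM to lung Fb and of 1.21 from failing to non-failing CFb barely exceeded the median SD, and non-failing CFb and left ventricle were not separated. For Fbxw10 the steps of 2.30 from CM to lung Fb and of 1.96 up to failing CFb exceeded the median SD, and those between lung Fb, left ventricle and non-failing CFb did not.

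The profiles over the 5 samples were compared with those of all other genes by the root mean square difference on the log2 scale, after the mean of each gene was subtracted. Nearest to Fbxo43 were Fbxl21 at 0.42 and Fbxw17 at 0.51. Nearest to Fbxw10 were Fbxw17 at 0.61 and Fbxo43 at 0.89, the 1 case in which a gene of the 5 was among the 2 nearest of another. Fbxo15 had Fbxw19 at 1.45 and Fbxl21 at 1.495, Fbxo24 had Fbxw14 at 1.26 and Fbxo27 at 1.41, and Fbxl13 had Fbxl16 at 0.62 and Fbxl18 at 0.82. The 5 genes were thus not all of 1 pattern, and Fbxo24 and Fbxo15 were the farthest apart of them. Their distance was 4.45, more than the 3.26 that was the median distance of Fbxo15 to all other genes. Fbxo15 lay closer to Fbxo43 at 1.51, to Fbxw10 at 1.70 and to Fbxl13 at 2.40. Fbxl13 lay 1.52 from Fbxo43 and 1.58 from Fbxw10. Fbxo24 lay 3.09 or more from each other gene of the 5.

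Other F-box genes, listed as germline or early embryo genes with earlier results known, were also under 6.0 in CM. Most of them were well above it in non-failing CFb. Of 19 listed, 7 were on the sheet, namely Fbxo5, Fbxo36, Fbxw13, Fbxw14, Fbxw16, Fbxw17 and Fbxw19. Of these 7, Fbxo5 alone carried a meiosis or oocyte term in the deposited annotation. In CM 0 of 7 reached 6.0 and their median level was 3.69, and in non-failing CFb 6 of 7 reached 6.0 with a median of 7.59. Of all 71 genes, 53.5% and 74.6% reached 6.0 in these 2 samples. Against non-failing CFb, 6 of 7 were at least 2-fold lower in CM and 6 of 7 in lung Fb, where 36.6% and 42.3% of all genes were. In failing CFb 2 of the 7 were higher and 3 lower than in non-failing CFb, with a median difference of -0.12 against -0.13 for all genes. By the same rule 19.7% of all genes were higher and 22.5% lower. By contrast, of 11 widely expressed F-box genes, among them the cyclin E receptor Fbxw7 and the iron-sensing Fbxl5, 11 reached 6.0 in CM, with a median of 7.05, and 9 of 11 did in lung Fb. Over all genes the shares were 53.5% and 49.3%. In non-failing CFb 10 of 11 reached 6.0, in failing CFb 7 and in left ventricle 6, where 74.6%, 73.2% and 33.8% of all genes did. Their median was 6.66 in non-failing CFb and 6.21 in failing CFb. Those of the 5 germline and stem cell genes were 6.58 and 6.98. Of the SCF core, Cul1 alone was on the sheets, at 9.38 in CM, 8.73 in lung Fb, 6.31 in non-failing CFb, 5.63 in failing CFb and 0.00 in left ventricle. Levels of these lists and of single genes rest on different probe sets and were not tested against each other.

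The identity of the samples was not checked by markers, because 0 of 33 listed markers of cardiomyocytes, fibroblasts, endothelium, macrophages, lung epithelium, germ cells and embryonic stem cells were among the named genes. The part of other cell types in the signal of the 5 genes was therefore not tested. The files used give no detection call, so that whether an intensity such as 1.65 for Fbxo15 in CM stood above background is unknown.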

How the data were processed

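Expression in 5 mouse samples was measured on Affymetrix arrays, with 1 array per group. The authors deposited log2 expression levels for the cullin and F-box probe sets in 2 sheets, and a whole-array table of linear intensity. The array named is the Mouse Expression Set, and the program named is the Affymetrix Exon Array Computational Tool. The labels describe whole-transcript labelling, which leaves unknown how the manufacturer's thresholds apply. For background correction, probe summary and scaling, the steps taken were not given in the sources used here. In the sheets there are also the authors' own differences between samples, which were not used.

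A gene took the first symbol of its probe set, and its level was the mean of its probe sets. For the 5 genes, the log2 levels and the log2 of the deposited intensities differed by at most 0.00185. Genes named are the 5, the 2 nearest profiles of each and the genes of 3 lists. Members and lists were chosen with earlier results of these data known. With 1 sample per group no test was made. Alternatives were the median or highest probe set, leaving out _s_at, _x_at and _a_at probe sets, the whole-array table, equal medians, quantile normalization, a level of 6.5, 1.5-fold, no minimum level, and percentiles over the F-box probe sets. Equal medians and quantile normalization were computed over the 130 probe sets of both sheets, not over the whole array. Python 3.11.15, pandas 2.3.3, NumPy 2.4.6 and matplotlib 3.10.9 were used, and the functions were tested on simulated data.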

Additional observations from a re-analysis of the deposited data

How the results depend on the processing

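No paired analysis was possible because each group had 1 sample. Counts of genes were the same within 1.5 times, and median percentiles within 5 points, without _s_at, _x_at and _a_at probe sets and with the whole-array table. The first of these cannot change the levels of the 5 genes, which have 1 probe set each. Counts also stayed within 1.5 times at 6.5 and at 1.5-fold. Percentiles do not depend on these 2 rules. Equal medians moved left ventricle by 1.33, non-failing CFb by -0.58 and the other samples by between -0.42 and -0.14 on the log2 scale. With equal medians and with quantile normalization alike, 3 of the 5 genes reached 6.0 in left ventricle, with 47.9% of all genes under either. Under both, 3 were at least 2-fold higher in left ventricle than in CM, with 38.0% and 29.6% of all genes. In lung Fb 1 was 2-fold lower than in non-failing CFb, where 28.2% and 29.6% of all genes were. In non-failing CFb 2 reached 6.0, with 56.3% and 52.1% of all genes, and in failing CFb 3, with 59.2% and 50.7%. Quantile normalization turned Fbxw10 to 0.17 in CM and 1.14 in lung Fb against non-failing CFb, in which it lay near the bottom of the range. Without the minimum level, 5 genes were 2-fold lower in CM and 4 in lung Fb than in non-failing CFb, with 46.5% and 52.1% of all genes, while left ventricle exceeded CM for 3 genes and fell below it for 1, with 23.9% and 49.3% of all genes. The median percentile was 47.9 in non-failing CFb with the median of the probe sets. With the highest probe set it was 36.6 in left ventricle, 35.2 in non-failing CFb and 47.9 in failing CFb, since genes with several probe sets then rise. Over the F-box probe sets it was 51.3 in left ventricle. Signal over background was not given, which limits the reading of low levels.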

Other observations

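CM and lung Fb, which were both low for most of the 5 genes, did not hold them in the same proportion. Fbxo24 was lower in CM than in lung Fb by 3.84 on the log2 scale, and Fbxl13 was higher in CM by 2.11. Fbxo15 differed between the 2 by -1.04, Fbxo43 by -1.73 and Fbxw10 by -2.30. Left ventricle against non-failing CFb gave -7.79 for Fbxo24, with 0.27 for Fbxo15.

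Of the 25 intensities of the 5 genes, 9 lay under 10 units. The left ventricle intensities had at most 1 decimal for 5 of 5 genes, and those of CM for 0 of 5. The level of -1 for Fbxo24 is such a value. What this form means for the low levels in left ventricle was not tested.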
